A study of Danio rerio with 8 samples.

Results

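Zebrafish embryos that received a morpholino against prmt6 but still looked normal at 6 hours post fertilisation (hpf) were compared with embryos that received the control morpholino. The comparison rests on 4 of the 8 arrays of the series, which are the 1 array of normal-looking prmt6 morphants and the 3 arrays of control morphants. All arrays came from whole embryos at 6 hpf. The controls had been injected with the control morpholino (cMO) at 0.3 mM, and the morphants with the prmt6 morpholino (MO) at 0.3 mM, with 3 nl per embryo at the 1-cell or 2-cell stage in both cases. No uninjected embryos were analysed here, so every group carries an injected morpholino. The morphants had been sorted by shape at 6 hpf into normal, mild and severe classes, and the mild class (1 array) and the severe class (3 arrays) are used below only where the normal-looking class is set beside them. The strain, the number of embryos behind each array and the kind of block the morpholino makes are not given in the sources used here.

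PRMT6 is a nuclear arginine methyltransferase that places methyl groups on arginines of histone H3 and other proteins, and in mammalian cells it is known mainly as a repressor of transcription. A morpholino is a synthetic oligomer that blocks either the translation or the splicing of its target RNA, so the level of the target transcript does not by itself report how much protein is left. At the stage sampled the embryo has started to gastrulate: its own genome is active, maternal RNAs are being cleared, and the outer enveloping layer, the yolk syncytial layer and the deep cells already express different genes.

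The values are log2 signals from Affymetrix arrays, with 1 value for each probe set, a group of probes that reads 1 transcript. Of 15502 probe sets that are not array controls, the 9301 with a mean of at least 5.58 over the 8 arrays were tested, and these cover 6192 named genes. The background of the arrays, the 95th percentile of 17 negative control probe sets, lay at 5.10. Both groups carried the RNAs of an early gastrula. The notochord and mesoderm gene tbxta read 11.66, 11.64 and 11.96 on control arrays 1, 2 and 3 and 11.75 on the normal array, and the organizer gene gsc read 10.61, 10.65 and 10.90 against 11.21. Of 32 markers of blood, muscle, neurons and other types that form later, 4 were above background on all 4 arrays. Among the 3 of them that were tested, actc1a lay farthest from the controls, at 5.55, 5.92 and 5.95 against 7.08. Of these 3, 1 stayed within the controls and none lay below. The summed linear signal of the 32 was 727 to 876 on the control arrays and 863 on the normal array, and only neurod1 and tal1 were at 0, both on control array 2.

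Control arrays 1 and 2 were much alike, and control array 3 stood apart from both. Only 40 of the 9301 probe sets were at least 2-fold apart between control arrays 1 and 2, whereas 492 and 513 were that far apart between each of them and control array 3. The normal array was at least 2-fold apart from control arrays 1, 2 and 3 for 603, 639 and 475 probe sets. By count it was farther from control arrays 1 and 2 than control array 3 was (492 and 513), and nearer to control array 3. The Spearman correlation over all 15502 probe sets did not give that order, at 0.956, 0.957 and 0.953 with control arrays 1, 2 and 3. By count the normal array was farther from the mild array, with 1279 probe sets, and farther still from the severe arrays, with 3100, 2458 and 1880. The labels name no batch, and whether array handling has a part in the distance of control array 3 was not tested. The hybridisation controls, RNAs added to each sample, averaged 11.13 on the normal array and 10.69 to 10.89 on the control arrays.

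**Figure D1:**
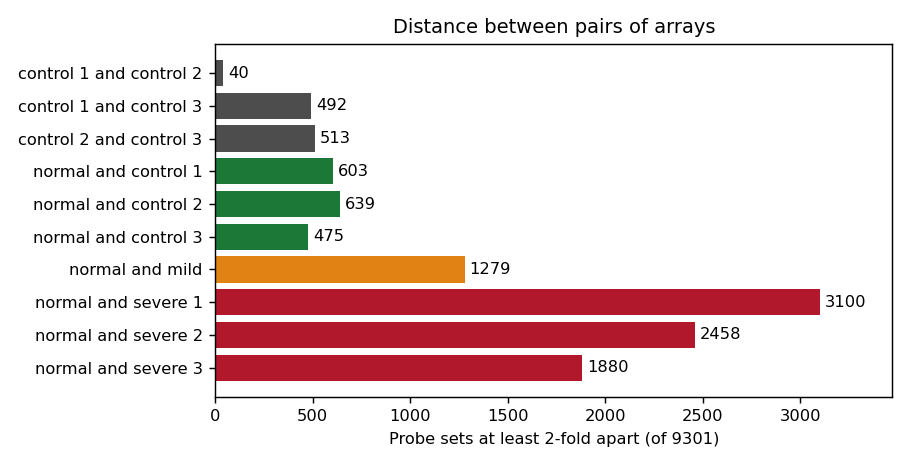
Number of the 9301 tested probe sets that were at least 2-fold apart between pairs of arrays, for the control pairs (grey), the normal array against each control (green), the mild array (orange) and each severe array (red). The bars of the normal array against the controls (475 to 639) span those of control array 3 against the other controls (492 and 513), 2 of the 3 being longer, and the bars against the malformed classes are longer (1279 to 3100).

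Few transcripts passed the test between normal-looking and control morphants. With limma, taking the spread from the 3 controls and assuming that the lone normal array varies like them, 7 probe sets had a Benjamini-Hochberg adjusted p under 0.05 and also lay outside the range of the controls. Of these, 6 fell (0.0645% of those tested) and 1 rose (0.0108%). The lowest adjusted p was 0.0374, and 1350 probe sets had an unadjusted p under 0.05. The count rests on the controls: it was 26 without control array 1, 64 without control array 2 and 4053 without control array 3, which leaves the near-identical pair to set the spread. A permutation of 1 array against 3 has only 4 arrangements, too few for a p under 0.05, so single values could not be tested in that way.

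Of the 6 probe sets that fell, 5 carry a gene symbol: eif5b, anxa5b, ndufv1, serp1 and ubap2b. The translation factor gene eif5b, whose GTPase joins the ribosomal subunits, read 10.77, 10.74 and 11.09 on the control arrays and 8.48 on the normal array. It was 5.21-fold lower in the normal-looking morphants (log2 difference -2.38, SE 0.20, limma adjusted p = 0.0477). It was singled out after its values were seen, because the brighter of its probe sets over the 8 arrays did not move in the same measure and read 10.62, 10.69 and 10.88 against 10.37 (adjusted p = 0.382). The 2 probe sets of eif5b therefore disagree in size against the controls, and in order beside the malformed classes, as given below.

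The annexin gene anxa5b, which encodes a protein that binds membrane phospholipid in the presence of calcium, read 11.20, 11.14 and 10.80 on the control arrays and 8.78 on the normal array. Its log2 difference was -2.27 (SE 0.20, limma adjusted p = 0.0477). Both of its other tested probe sets were lower as well, from 9.27, 9.23 and 8.89 to 6.86 and from 8.35, 8.66 and 7.63 to 5.49. All 3 probe sets thus lay below every control by more than 1 log2 unit, which the eif5b probe sets did not. In whole embryos, fewer cells of a type that express a gene and less of its RNA per cell cannot be told apart.

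The mitochondrial gene ndufv1 encodes the flavoprotein subunit of complex I that receives electrons from NADH. It read 10.35, 10.56 and 10.49 on the control arrays and 8.41 on the normal array, a 4.15-fold fall (log2 difference -2.05, SE 0.17, limma adjusted p = 0.0477). The endoplasmic reticulum gene serp1, whose product sits beside the translocon and protects new membrane proteins, fell from 13.12, 13.09 and 12.94 to 11.25 (log2 difference -1.80, SE 0.13, adjusted p = 0.0477). The ubiquitin-associated protein gene ubap2b fell from 12.45, 12.31 and 12.42 to 10.88 (log2 difference -1.51, SE 0.13, adjusted p = 0.0477). In each of these genes the controls lay far closer to one another than to the normal reading, which is what the test selects for.

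The remaining calls were probe sets with no gene symbol in the platform annotation. Neither call held in the fit of all 8 arrays, and the rise among them was also lost under the scaling on hybridisation controls. One of them fell from 9.63, 9.39 and 9.41 to 5.91, the largest fall among the calls (log2 difference -3.57, adjusted p = 0.0374). The other was the single call upward, from 9.06, 9.06 and 9.0 to 10.94 (log2 difference 1.91, adjusted p = 0.0477). The call of anxa5b was lost when the brightest 40% of probe sets alone were tested (adjusted p = 0.0537), under the scaling on hybridisation controls (0.054) and in the fit of all 8 arrays (0.331). That of ubap2b was lost when each array was centred on its median (0.128), that of ndufv1 in the fit of all 8 arrays (0.0517), and every call when the spread was not modelled as a trend of the level (0.272). Over all alternatives the adjusted p of these 4 genes ranged from 1.06e-16 to 0.331, the lowest values coming from the fits that leave out control array 3.

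Beside the malformed morphants, the called genes took different positions, each read by its called probe set. For eif5b that order does not hold for the gene as a whole. Its brighter probe set, not called, read 10.37 on the normal array, 10.60 on the mild array and 11.29, 11.33 and 10.55 on the severe arrays. There the normal reading was the lowest. The eif5b probe set read 7.0 on the mild array and 6.97, 7.16 and 7.0 on the severe arrays, so the normal array lay between the controls and the malformed classes (normal minus severe 1.44 log2, SE 0.26, limma adjusted p = 0.00985 in the fit of all 8 arrays). The gene ndufv1 had the same order, with 6.79 on the mild array and 7.59, 7.25 and 7.13 on the severe arrays (normal minus severe 1.09, SE 0.27, adjusted p = 0.0253). The normal and severe arrays did not differ beyond the test for serp1 (-0.42, SE 0.20, adjusted p = 0.156) or anxa5b (0.09, SE 0.55, adjusted p = 0.918).

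The gene ubap2b went the other way: it read 12.20 on the mild array and 12.20, 12.14 and 11.81 on the severe arrays, all well above the normal array at 10.88 (normal minus severe -1.17, SE 0.19, adjusted p = 0.00721). These genes were chosen by the reading of the normal array, which also enters the difference from the severe arrays, so the second difference is not independent of the choice.

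The gene aimed at, prmt6, read higher in the normal-looking morphants than in every control. Its transcript stood at 9.67, 9.87 and 9.56 on the control arrays and at 11.22 on the normal array, which is 1.35 above the highest control. The log2 difference was 1.52 (SE 0.18), or 2.87-fold, and it did not pass the test (limma adjusted p = 0.109). The adjusted p fell below the threshold when any 1 control was left out (0.0217, 8.99e-05 and 1.17e-10) and ranged from 1.17e-10 to 0.287 over the alternatives. The malformed classes read alike, with 11.13 on the mild array and 11.30, 11.10 and 11.41 on the severe arrays, and the normal array did not differ from the severe ones beyond the test (log2 difference -0.05, adjusted p = 0.882).

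The other arginine methyltransferases did not follow prmt6. Among 8 tested genes of this family and of the methylosome, a complex built around prmt5, prmt6 was the only one above every control, and 4 lay below every control. The largest of those distances were small: riok1, a kinase that binds prmt5, read 9.32, 9.23 and 8.12 against 8.06, and wdr77, the partner subunit of prmt5, read 8.83, 8.65 and 9.15 against 8.60. For comparison, 30.5% of all genes tested lay above every control and 31.5% below every control, so a position outside the range of 3 controls is common on this array.

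A second rule without a fitted spread asked for a normal reading at least 2-fold beyond the nearest control. It was met by 48 probe sets above the controls (0.516%) and 89 below (0.957%). With 1 probe set per gene, these were 25 genes above (0.404%) and 45 below (0.727%). Dim probe sets met the rule more often than bright ones. The dimmest 1861 probe sets, where the median control SD was 0.30, held 20 of the higher and 46 of the lower ones, and the brightest 1860, with a median control SD of 0.12, held 4 and 5. Of the 89 lower probe sets, 21 had a normal reading under the background, so that the difference has only a lower bound. The 137 probe sets in all became 437 when control array 3 was left out.

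**Figure D2:**
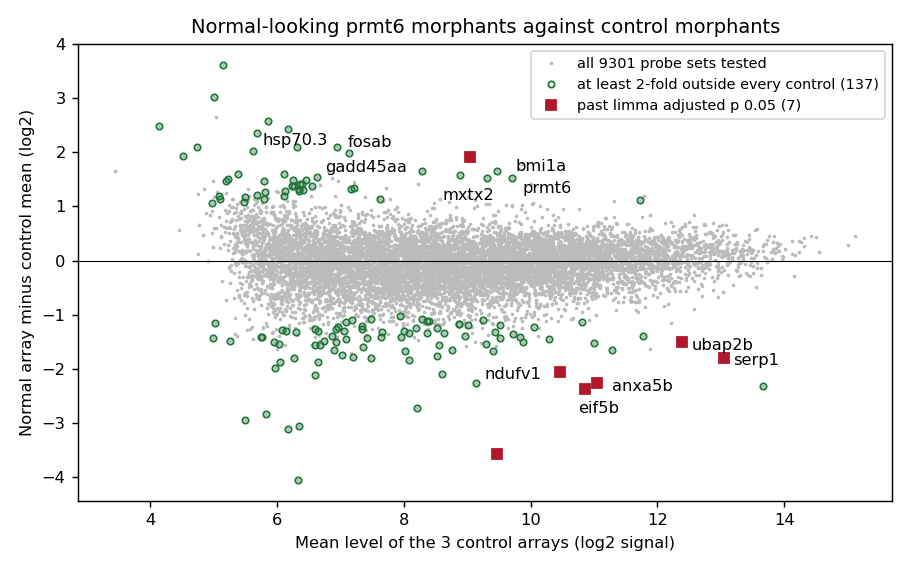
Difference between the normal array and the mean of the 3 controls (vertical axis, log2) against the mean control level (horizontal axis, log2 signal) for the 9301 tested probe sets. Open green circles mark the 137 probe sets at least 2-fold outside every control and red squares the 7 that passed limma, of which eif5b, anxa5b, ndufv1, serp1 and ubap2b are named below the zero line and bmi1a, mxtx2, prmt6, fosab, gadd45aa and hsp70.3 are named circles above it.

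Genes were ranked by the brightest probe set of each. A dimmer probe set of spint1b read 5.83, 5.23 and 3.96 against 8.02, although its brightest stayed within the controls. Genes known only by a clone name were not ranked. Probe sets of 2 of them on either side lay far enough from the controls to enter the groups of 12 that follow. Of the 12 other genes that lay farthest above the controls, 4 were stress or immediate-early genes, and none of the 12 passed the test (adjusted p from 0.109 to 0.278). The AP-1 subunit gene fosab read 7.43, 7.04 and 6.34 on the control arrays and 9.04 on the normal array (log2 difference 2.1, SE 0.45, adjusted p = 0.222). Its partner gene junbb read 6.44, 6.12 and 6.52 against 7.78 (1.42, SE 0.32, adjusted p = 0.222). The inducible chaperone gene hsp70.3 read 6.20, 5.46 and 5.2 against 7.65 (2.03, SE 0.47, adjusted p = 0.23). In each of these genes the normal reading lay more than 2-fold above the highest control, which was the rule that chose them.

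The growth arrest and DNA damage gene gadd45aa, which acts upstream of stress kinases in mammals, read 6.70, 6.39 and 6.78 on the control arrays and 8.16 on the normal array. The difference was 1.54 (SE 0.30) and did not pass the test (adjusted p = 0.213). The mild array read 9.30 and the severe arrays 9.05, 9.24 and 9.96, so the normal array held a middle position, 2.39-fold under the severe mean (normal minus severe -1.26, SE 0.38, adjusted p = 0.0448). The Polycomb gene bmi1a, whose product is part of a chromatin-silencing complex, had the same order. It read 9.60, 9.77 and 9.04 on the control arrays, 11.12 on the normal array, 11.75 on the mild array and 11.94 to 12.12 on the severe arrays (normal minus severe -0.90, SE 0.26, adjusted p = 0.041). These were the only 2 of the 12 genes whose normal reading differed from the severe arrays in that test.

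The same 12 held developmental regulators and a junction gene. The yolk syncytial layer homeobox gene mxtx2 read 8.87, 9.05 and 8.75 on the control arrays and 10.47 on the normal array (log2 difference 1.58, SE 0.20, adjusted p = 0.135). The tight junction gene cldn3d read 7.98, 8.28 and 8.61 against 9.94. The small GTPase gene arl11 read 6.60, 6.20 and 6.37 against 7.80. All of these normal readings lay at least 2-fold above the highest control, again by the rule that chose the genes.

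The genes dbx1a and agr2 were near background in the controls. The homeobox gene dbx1a read 4.56, 5.12 and 4.54 on the control arrays and 6.84 on the normal array, so 1 of its 3 control readings cleared the background. The secretory-pathway disulfide isomerase gene agr2 read 4.73, 5.42 and 5.41 against 6.65, with 2 control readings above background. Their folds are for this reason less certain than those of mxtx2 or prmt6.

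The next 12 are the genes whose brightest probe set lay farthest below the controls, clone names again left out. Of these, 4 are the calls anxa5b, ndufv1, serp1 and ubap2b given above. A dimmer probe set of gemin5 lay farther below than any of the 12, at 6.51, 6.50 and 5.99 against 2.28, under the background. The brightest of gemin5 read 8.33, 8.27 and 7.89 against 7.55. The gene eif2b2, for a subunit of the exchange factor that recharges the initiation factor eIF2, read 8.05, 8.01 and 8.01 on the control arrays and 6.36 on the normal array (log2 difference -1.67, SE 0.24, adjusted p = 0.169). The gene mif4gda, whose product carries a domain of the eIF4G type, read 8.57, 8.82 and 8.91 against 7.12 (adjusted p = 0.169). The chromatin remodelling gene rsf1b.1 read 9.02, 8.73 and 8.05 against 6.50 (adjusted p = 0.213), and the cytochrome P450 gene cyp2x7 read 6.89, 6.83 and 6.98 against 5.25 (adjusted p = 0.213). Their normal readings lay below every control because the genes were chosen that way.

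The other 4 genes of this group read under the background on the normal array and have only bounds. The pteridine reductase gene qdprb.1 read 6.34, 6.57 and 5.62 on the control arrays and 3.07 on the normal array, at least 2.1-fold lower (adjusted p = 0.204). The bound was 1.81-fold for the zinc finger gene znf1161 (adjusted p = 0.213), 1.80-fold for the protein kinase gene pkn1b (adjusted p = 0.234) and 1.64-fold for tigarb, a regulator of glycolysis (adjusted p = 0.223). A second tested probe set of qdprb.1 fell less, from 5.76, 6.02 and 5.94 to 5.14, just above the background (log2 difference -0.77). The 2.1-fold bound of qdprb.1 therefore holds for its first probe set alone. Beside the malformed classes the 4 genes differed. The gene qdprb.1 stood at 6.58 on the mild array and at 5.97, 6.01 and 5.42 on the severe arrays, whereas znf1161 read 4.82 on the mild array, also under the background, and 6.77, 6.16 and 5.77 on the severe arrays. The gene pkn1b read 5.84, 6.00 and 6.01 on the control arrays and 4.45 on the normal array, with 5.54 on the mild array, below every control, and 6.50, 6.70 and 6.55 on the severe arrays. The gene tigarb read 6.50, 5.99 and 4.96 on the control arrays, 2.98 on the normal array, 6.99 on the mild array and 7.57, 7.24 and 6.91 on the severe arrays.

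**Figure D3:**
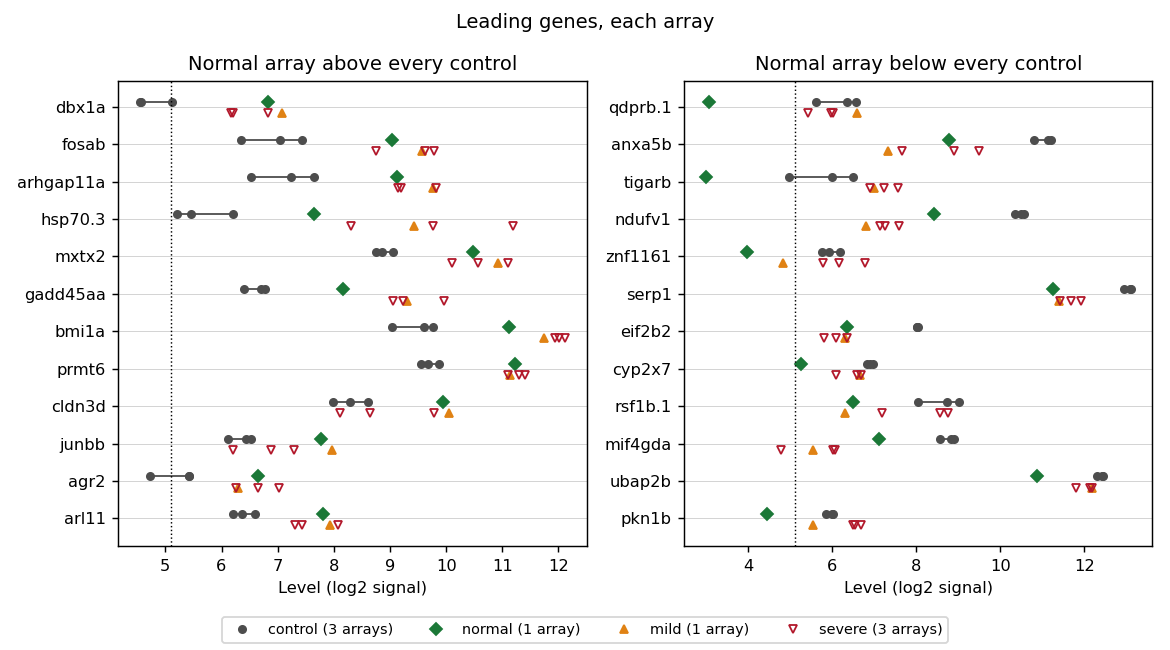
Level (log2 signal) on each array for the 12 genes farthest above (left) and the 12 farthest below (right) the range of the 3 controls. Each gene has 1 row and is read by its brightest probe set, with clone-named genes left out. Grey circles joined by a line are the controls, the green diamond is the normal array, orange and red triangles are the mild and severe arrays, and the dotted line is the background at 5.10. The green diamond lies outside the grey line in every row because the genes were chosen that way.

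Whole gene groups were then described by how many of their tested genes lay outside the 3 controls, against the 30.5% above and 31.5% below over all genes, and by the median of the normal array minus the control mean, which was -0.02 over all 6192 genes. Scaling the arrays on their hybridisation controls shifted the median difference over the tested probe sets to -0.37, from -0.03 as deposited, which lowers every list by a like amount. Among the lists with a median above 0, only the gadd45 family and the ribosomal proteins stayed above 0 under that scaling, and the rest turned below 0.

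The stress groups were uneven. In the gadd45 family 3 of 4 tested genes lay above every control and none below, with a median of 0.47. Beside gadd45aa, gadd45bb read 11.32, 11.35 and 11.38 on the control arrays and 12.05 on the normal array (adjusted p = 0.213). The gene gadd45ba read 10.54, 10.64 and 10.27 against 10.71 (adjusted p = 0.602), only 0.08 above the highest control. Another tested probe set of gadd45ba stayed within the controls (log2 difference 0.146, adjusted p = 0.807). The brightest probe set of gadd45ba also changed side under the hybridisation control scaling, so its place in the count of 3 is uncertain. Of 19 AP-1 and immediate-early genes, 12 lay above every control and 2 below. The list median was 0.34 on the normal array, against 0.08, 0.09 and -0.13 on the controls, and it turned just below 0 under the hybridisation control scaling. The AP-1 gene jun read 7.80, 7.78 and 7.45 against 8.78 (adjusted p = 0.237).

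Heat-shock proteins and chaperones, some of them of mitochondria or the endoplasmic reticulum, gave 11 of 21 genes above and 5 below, with a median of 0.05 that turned negative under quantile normalization and under the hybridisation control scaling. The collagen chaperone gene serpinh1b read 7.53, 6.62 and 7.51 against 8.55, whereas the Hsp70 partner gene dnajb1a read 5.98, 6.05 and 6.15 against 5.33. Endoplasmic reticulum stress genes gave 11 of 26 above and 3 below, with a median of 0.13 against 0.10 and 0.11 on control arrays 1 and 2. The chaperone gene hsp90b1 read 11.33, 11.41 and 11.04 against 11.72, and pdia3, a protein disulfide isomerase gene, read 10.28, 10.22 and 10.08 against 10.69 (adjusted p = 0.291).

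The p53 targets gave 7 of 16 above and 4 below with a median of 0.02, and the apoptosis machinery 6 of 18 above and 8 below with a median of -0.15. The p53-induced death gene bbc3, known as Puma, read 7.65, 7.13 and 7.37 on the control arrays and 8.55 on the normal array (log2 difference 1.17, adjusted p = 0.252), and the initiator caspase gene casp8 read 7.37, 7.44 and 7.04 against 6.48 (adjusted p = 0.325). The JNK and p38 cascade gave 2 of 10 above and 4 below, and its kinase gene mapk14a read 11.72, 11.84 and 11.49 against 11.01 (adjusted p = 0.255). The gene of that cascade farthest from the controls, map2k4a, was higher instead, at 7.21, 7.32 and 7.35 against 7.87. Hypoxia and glycolysis genes gave 6 of 22 above and 5 below, xenobiotic and oxidative stress genes 10 of 25 above and 6 below, and innate immunity genes 4 of 8 above and 1 below. No gene on these stress lists passed the test. The endoplasmic reticulum gene serp1, called above, is on none of them.

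**Figure D4:**
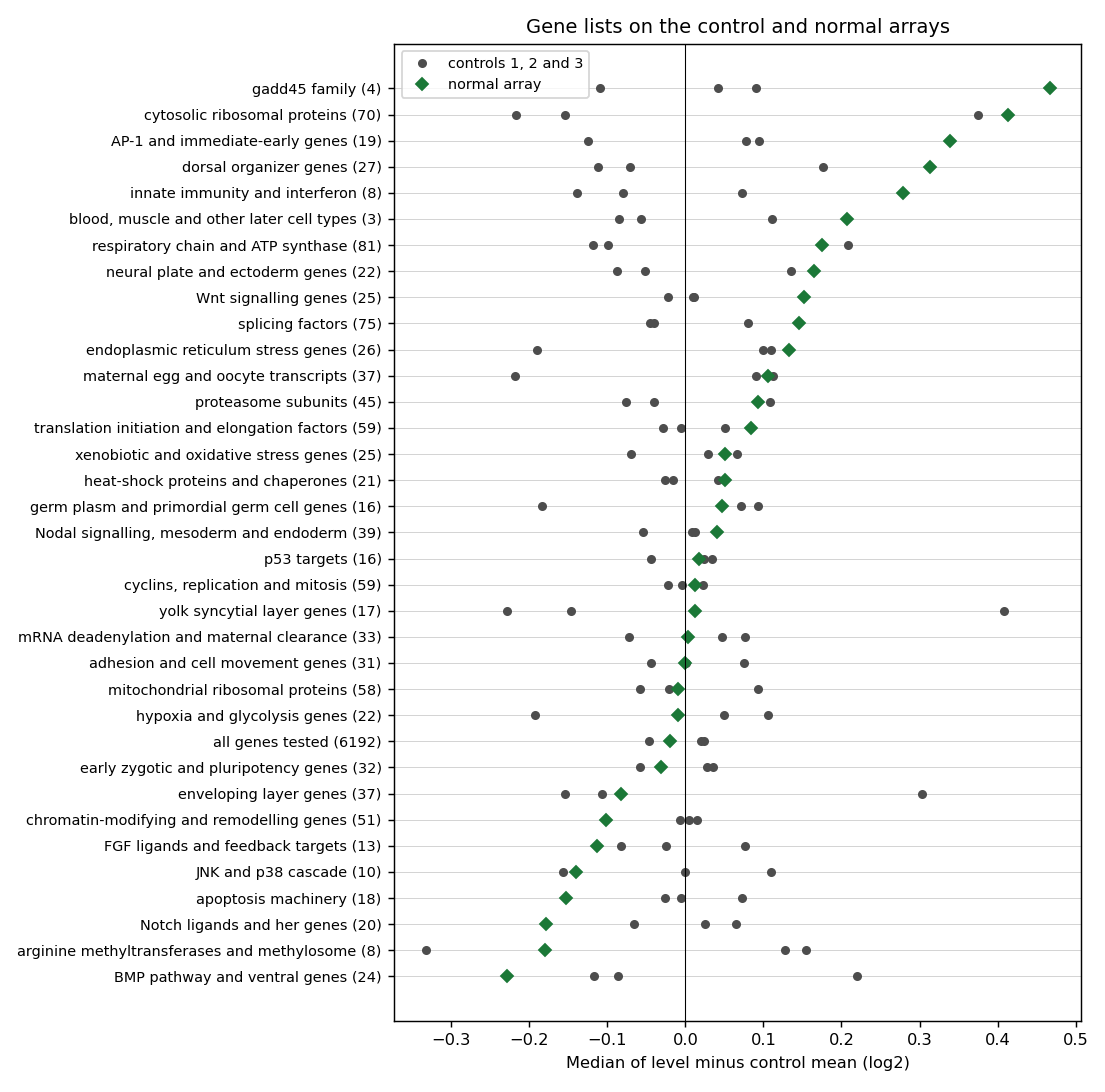
Median over the tested genes of each list (number in brackets) of the level minus the control mean (log2), for control arrays 1, 2 and 3 (grey circles) and the normal array (green diamond). The gadd45 family (0.47) and the ribosomal proteins (0.41) lie highest and the BMP and ventral genes (-0.23) lowest, and in the ribosomal list 1 control circle, control array 3 at 0.37, lies close to the normal array.

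Counts of dorsal and ventral patterning genes leaned to opposite sides of the controls, though not every gene followed. Each list median on the normal array lay beyond the control medians, but by less than the control medians spanned. Of 27 dorsal organizer genes, 16 (59.3%) lay above every control and 5 below, with a median of 0.31 on the normal array and -0.11, -0.07 and 0.18 on the control arrays. It was -0.03 under the hybridisation control scaling, above the -0.37 of all tested probe sets. The stem cell and neural crest factor gene foxd3 read 9.82, 9.96 and 9.94 on the control arrays and 10.80 on the normal array (log2 difference 0.90, SE 0.16, adjusted p = 0.213). The notochord homeobox gene noto read 11.42, 11.39 and 11.13 against 12.11 (adjusted p = 0.222), and the Nodal ligand gene ndr1 read 7.34, 7.45 and 7.05 against 8.07 (adjusted p = 0.31).

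Of 24 genes of the BMP pathway and ventral fate, 3 lay above every control and 16 (66.7%) below. The list median was -0.23 on the normal array and -0.12, -0.09 and 0.22 on the control arrays, and it stayed negative under every alternative (-0.57 to -0.13). The HLH repressor gene id2a read 9.29, 9.18 and 9.69 on the control arrays and 8.23 on the normal array (log2 difference -1.15, SE 0.25, adjusted p = 0.222). The ventral ectoderm factor gene tfap2c read 8.63, 8.66 and 8.86 against 7.76 (adjusted p = 0.228), and the ligand gene bmp4 read 7.14, 7.23 and 7.80 against 6.35 (adjusted p = 0.304). The homeobox gene eve1, a ventral marker, read 10.32, 10.24 and 11.04 against 9.63. None of these genes passed the test, and the organizer antagonist gene chrd went with the ventral genes, at 9.28, 9.30 and 9.38 against 9.0.

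The other signalling groups lay closer to the shares over all genes. Genes of Nodal signalling, mesoderm and endoderm gave 14 of 39 above and 6 below (median 0.04), Wnt genes 9 of 25 above and 7 below (0.15), and FGF genes 4 of 13 above and 4 below (-0.11). Notch ligands and her genes gave 4 of 20 above and 7 below (-0.18), neural plate and ectoderm genes 9 of 22 above and 6 below (0.16), and early zygotic and pluripotency genes 10 of 32 on either side (-0.03). The Pou factor gene pou2f1b read 9.80, 9.86 and 9.52 on the control arrays and 8.61 on the normal array (adjusted p = 0.213), and foxb1a, a forkhead gene of the early neural plate, read 8.55, 8.80 and 9.09 against 9.80 (adjusted p = 0.259). Genes of adhesion and cell movement gave 7 of 31 above and 10 below.

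The list medians of the outer tissues of the gastrula lay inside the span of the controls, but the enveloping layer counts leaned downward. Of 37 enveloping layer genes, 3 (8.1%) lay above every control, 15 (40.5%) below and 19 within. Their median was -0.08, inside the span of the controls at -0.15, -0.11 and 0.30. It stayed negative under every alternative (-0.42 to -0.003). The gene of this list farthest from the controls, agr2, was higher instead, at 4.73, 5.42 and 5.41 against 6.65, near background in the controls. The plakophilin gene pkp3a, for a desmosome protein, read 9.57, 9.49 and 10.19 against 8.68 (log2 difference -1.07, adjusted p = 0.273), and the keratin gene krt97 read 12.40, 12.41 and 12.93 against 11.69 (adjusted p = 0.264). Of 17 yolk syncytial layer genes, 3 lay above and 4 below, with a median of 0.01 inside control values of -0.23, -0.15 and 0.41. On these lists control array 3 stood farther from the other controls than the normal array did from their mean.

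Counts of maternal and germ line transcripts leaned above the controls, but both list medians lay inside the span of the controls. Of 37 egg and oocyte transcripts, 17 lay above every control and 7 below, but the median of 0.11 lay beside that of control array 1, also 0.11, and was -0.23 under the hybridisation control scaling. The germ cell RNA-binding protein gene dnd1 read 9.37, 9.38 and 9.13 on the control arrays and 10.33 on the normal array (log2 difference 1.04, SE 0.19, adjusted p = 0.213). A second probe set of dnd1 stayed within the controls, at 9.0, 9.13 and 8.63 against 8.67, so the gene as a whole is uncertain. The oocyte gene zar1 read 9.47, 9.43 and 9.29 against 10.01 (adjusted p = 0.273). Germ plasm genes gave 8 of 16 above and 5 below. Their median was 0.05, inside control values of 0.09, 0.07 and -0.18, and turned negative under the hybridisation control scaling and without control array 3. Of these genes, rgs14a read 7.47, 6.92 and 6.73 against 6.16, and kop read 5.53, 6.37 and 5.65 against 4.98, under the background. Genes of deadenylation and maternal clearance gave 12 of 33 above and 10 below.

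Cytosolic ribosomal protein genes lay mostly above the controls. Of 70 tested genes, 40 lay above every control, 1 below and 29 within. The median was 0.41 on the normal array, but 0.37 on control array 3 and -0.15 and -0.22 on control arrays 1 and 2, so the normal array lay next to a control that differed as much from the other controls. The large subunit gene rpl14 read 12.26, 12.18 and 12.84 on the control arrays and 13.10 on the normal array (adjusted p = 0.34), and rps26 of the small subunit read 12.31, 12.17 and 12.51 against 12.79 (adjusted p = 0.308). The exception was rpl7l1, a nucleolar homologue, at 11.87, 11.87 and 12.15 against 11.49. The same control stood beside the normal array for the respiratory chain, where 34 of 81 genes lay above and 12 below with a median of 0.18, against 0.21 on control array 3.

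In the remaining machinery the counts on the 2 sides were more even than for the ribosomal proteins, though splicing factors still leaned above the controls. Splicing factors gave 35 of 75 above and 18 below (median 0.15), translation factors 23 of 59 above and 16 below (0.08), mitochondrial ribosomal proteins 18 of 58 on either side (-0.01) and proteasome subunits 14 of 45 above and 16 below (0.09). The gene mrpl1 of the mitochondrial large subunit read 8.48, 8.39 and 8.71 against 7.28 (log2 difference -1.24, SE 0.24, adjusted p = 0.213). Cyclins, replication and mitosis genes gave 19 of 59 above and 17 below. Subunit genes of the replicative helicase went both ways there. The gene farthest from the controls, mcm6, was higher, at 5.41, 5.04 and 4.71 against 6.33, with 1 control reading above background. Within that list mcm5, for a subunit of the replicative helicase, read 11.49, 11.41 and 11.47 against 10.70 (adjusted p = 0.213). Chromatin genes gave 14 of 51 above and 20 below with a median of -0.10, which stayed negative under every alternative, and the histone demethylase gene kdm6ba read 8.36, 8.38 and 8.43 against 7.28 (log2 difference -1.11, SE 0.22, adjusted p = 0.213).

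The chromatin reader gene brd2a had probe sets that disagreed in direction. Its brightest read 12.16, 12.11 and 12.03 on the control arrays and 11.26 on the normal array (adjusted p = 0.204), whereas another read 9.61, 9.56 and 8.74 against 10.83 (adjusted p = 0.237). Both lay outside the controls, on opposite sides, and neither passed the test.

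Against the severe morphants, the normal-looking embryos differed in far more transcripts than against the controls. In the fit of all 8 arrays, which takes its spread from the controls and the severe arrays, 965 probe sets were higher on the normal array (10.4%) and 1052 were lower (11.3%) with limma at an adjusted p under 0.05. With 1 probe set per gene this gave 623 genes higher (10.1%) and 803 lower (13%). The split turned with the scaling: after scaling on the hybridisation controls, 469 probe sets were higher and 121 lower. The total of 2017 also moved with single arrays: it was 1071, 1117 and 3322 without severe array 1, 2 or 3, and 1332 and 1326 without control array 1 or 2. The numbers of calls against the controls and against the severe arrays are not a measure of relative distance, because the spread is taken from different arrays in each fit.

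The largest differences included genes of the outer tissues and the neural plate, and in them the normal array lay within or close to the range of the controls. The yolk syncytial apolipoprotein gene apoc2 read 8.95 on the normal array and 2.16, 2.05 and 2.47 on the severe arrays (limma adjusted p = 0.003), with 9.39, 9.49 and 10.93 on the control arrays. The enveloping layer keratin gene krt5 read 12.11 against 6.11, 9.06 and 4.63 (log2 difference 5.51, SE 1.24, adjusted p = 0.0189), with 12.49, 12.56 and 12.88 in the controls. The severe readings of apoc2 lay under the background, so that it was at least 14.4-fold higher on the normal array.

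The keratin gene krt17 read 9.56 on the normal array and 3.68, 5.26 and 1.11 on the severe arrays (adjusted p = 0.0148), and the neural progenitor factor gene sox2 read 9.40 against 4.36, 5.15 and 2.42 (adjusted p = 0.00929). In both genes 2 of the 3 severe readings lay under the background, and with those readings raised to it the log2 difference was 4.41 for krt17 and 4.28 for sox2. Their control readings were 9.06, 8.87 and 10.62 for krt17 and 8.81, 8.71 and 10.20 for sox2, and the normal array lay within both ranges. The gene afp4 read 11.72 against 5.05, 7.11 and 6.76, and the actin-bundling protein gene lcp1 read 10.59 against 5.87, 7.37 and 3.35 (adjusted p = 0.0189). Of krt5, afp4 and lcp1, each had 1 severe reading under the background, and with it raised the log2 differences were 5.35, 5.40 and 4.48. No severe reading of these genes reached the normal one.

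In the other direction, btg4, which guides deadenylation of maternal RNA, read 8.24 on the normal array and 11.92, 11.87 and 10.29 on the severe arrays (log2 difference -3.12, SE 0.68, adjusted p = 0.0167). The controls at 9.18, 8.87 and 7.73 held the normal reading within their range. The homeobox gene dlx6a, ccdc149b, rasef2, the lipid remodelling gene serac1 and tigarb had the other large differences. All 5 read under the background on the normal array, which was at least 3.09-fold (ccdc149b) to 5.32-fold (rasef2) lower than the severe mean.

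By list, and against 10.1% of all genes higher and 13% lower, 19 of 37 enveloping layer genes, 11 of 17 yolk syncytial layer genes, 12 of 27 organizer genes, 10 of 24 BMP and ventral genes and 29 of 70 ribosomal protein genes were higher on the normal array than on the severe arrays, and none was lower. Nodal, mesoderm and endoderm genes had 19 of 39 higher and 1 lower, and early zygotic and pluripotency genes 15 of 32 higher and 2 lower. Egg and oocyte transcripts had 15 of 37 genes lower and none higher, germ plasm genes 5 of 16 lower and none higher, and endoplasmic reticulum stress genes 11 of 26 lower and 2 higher.

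**Figure D5:**
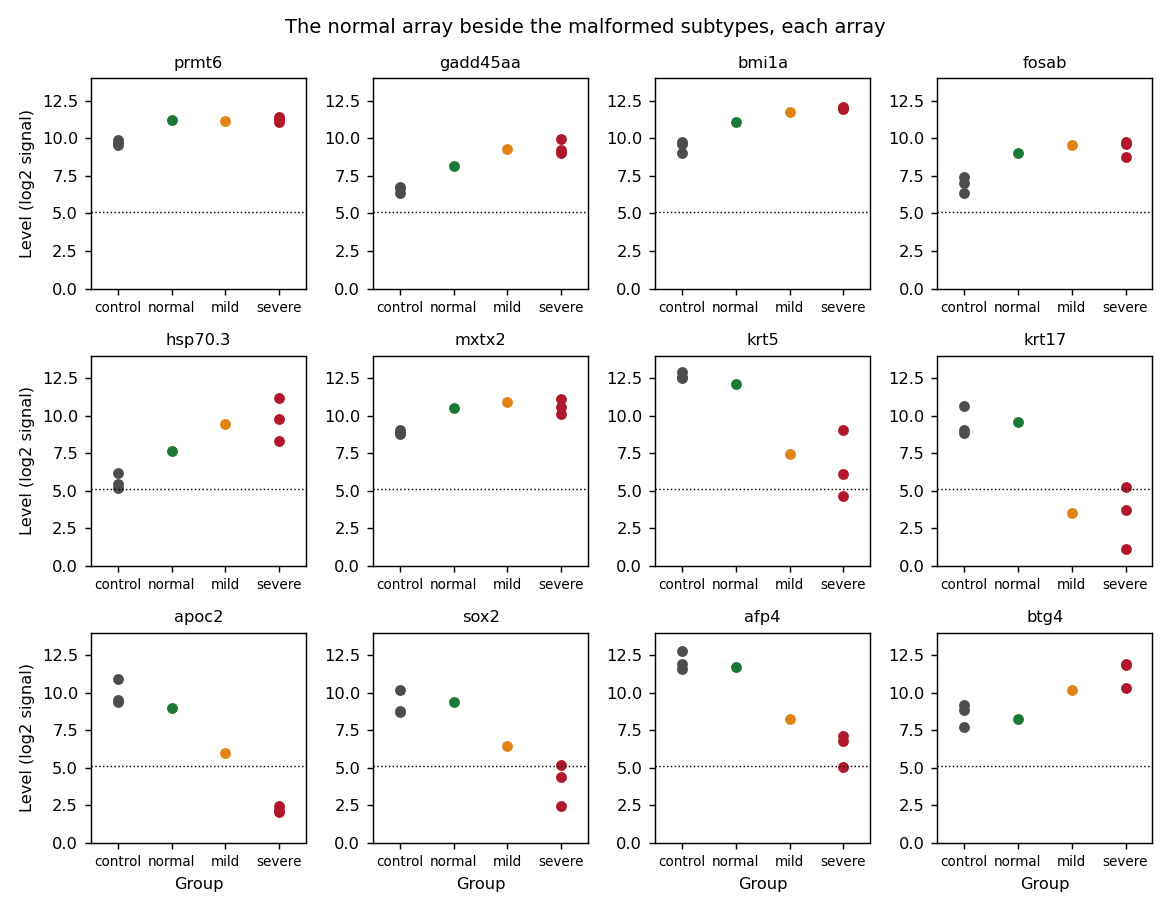
Level (log2 signal) of 12 genes on each control, normal, mild and severe array, with 1 point per array and the background of 5.10 as a dotted line. The normal array reads with the malformed classes for prmt6, mxtx2 and fosab, between the controls and the malformed classes for gadd45aa, bmi1a and hsp70.3, and near the controls for krt5, krt17, apoc2, sox2, afp4 and btg4.

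A few transcripts set the normal array apart from all 7 other arrays. It read at least 2-fold above every other array for 2 probe sets and at least 2-fold below for 21, and in 16 of these 21 the normal reading lay under the background. Among those with a normal reading above background, the calcium-binding protein gene gca read 8.15, 8.2 and 8.23 on the control arrays, 6.95 on the normal array, 8.38 on the mild array and 8.58 to 9.44 on the severe arrays. This gene was singled out after its values were seen, and with 1 normal array no replicate shows whether the reading belongs to the class or to that array.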

How the data were processed

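RNA of whole embryos was read on Affymetrix zebrafish arrays. The deposited values are on a log2 scale, and the tool named is MAS5, per the submitters' processing notes; its version and settings are not given in the sources used here. The 2% trimmed mean of the linear signals is 500 on every array, so each array had been scaled to a common trimmed mean before deposit. Of 15617 probe sets, 115 array controls were left out. Of the others, 10795 carried 1 gene symbol, 135 several and 4572 none, and 10711 symbols were updated by Entrez identifier; a gene was read by its brightest probe set.

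Probe sets with a mean at or above the 40th percentile were fitted with limma 3.58.1 in R 4.3.3 (eBayes with trend, Benjamini-Hochberg adjustment over all tested), with 2 residual degrees of freedom for normal against control and 4 in the fit of all 8 arrays. The fits were tried on simulated data with independent noise on every array. Those data hold no near-identical pair of controls, so they do not show how far the calls here can be trusted. The labels call the controls biological replicates. With 1 normal array, the p-values of the main fit against the controls measure only the spread between the controls. Those of the fit of all 8 arrays take their spread from the controls and the severe arrays. The number of arrays limits the precision. Clone-style gene names were left out of the naming. The named genes are prmt6, gadd45aa, the 12 genes farthest outside the controls on each side, up to 3 genes of each of 34 lists, and the 6 largest differences from the severe arrays in each direction. The comparison, lists and rules were chosen with earlier results of these data known. Some lists share genes. Alternatives covered normalization, the filter, a floor, the variance model, the arrays fitted and each replicate left out.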

Additional observations from a re-analysis of the deposited data

How the results depend on the processing

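Against the controls, the 7 calls became 10 with quantile normalization, 8 with median centring, 5 with hybridisation control scaling, 7 with no filter, 5 with a filter at the 60th percentile and 8 with a floor at the background. They became 4 with 1 probe set per gene, 4 with all 8 arrays in the fit and 0 without the trend, where limma still gave 1231 unadjusted p-values under 0.05. Leaving out 1 control gave 26 to 4053 calls, and averaging control arrays 1 and 2 into 1 sample, chosen after seeing the data, gave 37 (15 higher and 22 lower), prmt6 among them (adjusted p = 0.00723). The 137 probe sets at least 2-fold outside the controls became 283 with hybridisation control scaling (15 higher and 268 lower), 1195 with no filter, 43 at the 60th percentile and 70 with 1 probe set per gene. They were 162 to 437 with a control left out and 475 against control array 3 alone, the last chosen after seeing the data. The 2017 calls against severe became 590 with hybridisation control scaling (469 higher and 121 lower), 1155 with the severe and normal arrays only and 1071 to 3322 with an array left out. All 7 called probe sets kept their direction in each of the 12 to 14 alternatives in which they were tested. This is not an independent check, because every alternative uses the same normal array. Changes of the filter or the variance model, and the fit of all 8 arrays, leave the difference itself unchanged. No paired analysis was possible because the normal array carries no replicate number. Signals near the background of 5.10 limit the dim genes.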

Other observations

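All 5 subunits of the initiation factor exchange complex eIF2B lay below every control, though none passed the test and 31.5% of all genes lay below every control. The list of translation factors that holds all 5 had 23 of 59 genes above every control and 16 below. This was seen after the values of eif2b2 and eif2b1 had been read. Beside eif2b2, given above, eif2b1 read 7.04, 7.18 and 7.35 on the control arrays and 6.56 on the normal array (limma adjusted p = 0.379). The subunit gene eif2b4 read 8.99, 9.17 and 8.79 against 8.39, and eif2b5 read 8.44, 8.36 and 8.17 against 7.80. The gap was smallest for eif2b3, at 6.99, 6.97 and 6.87 against 6.86. That gap below the lowest control is smaller than the range of the controls, so the place of eif2b3 in the count of 5 is uncertain.

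Some Polycomb genes, picked after their values were seen, lay below the controls or within them, unlike bmi1a. The E3 ligase gene rnf2, the catalytic partner of bmi1a, read 11.56, 11.56 and 11.54 on the control arrays and 11.05 on the normal array (adjusted p = 0.25). The Polycomb repressive complex genes suz12a and suz12b read 7.08 to 8.32 and 7.79 to 8.13 in the controls against 6.71 and 7.40. The second bmi1 gene, bmi1b, read 8.71, 8.44 and 7.19 against 8.27 and stayed within the controls.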
